A study of Homo sapiens with 18 samples.

Results

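The 5 subunits of the transcription factor NF-kB and 5 of its inhibitors were followed in 2 lymphoma cell lines given JIB-04. The genes were taken by symbol. The subunits were NFKB1, NFKB2, RELA, REL and RELB, and the inhibitors were NFKBIA, NFKBIE, NFKBIZ, BCL3 and TNFAIP3. All 10 were found among the 23686 genes of the deposited tables, and all 10 passed the low-count filter in both lines. RNA was measured by sequencing of ribosome-depleted total RNA in OCI-Ly1 and TMD8, established human lines of diffuse large B-cell lymphoma. Each line had a group given 0.01% DMSO (the vehicle), a group given 150 nM JIB-04 and a group given 500 nM JIB-04. JIB-04 is a small-molecule inhibitor of Jumonji histone demethylases, enzymes that remove methyl groups from histones. Each of the 6 groups had 3 libraries, and no allele or transgene is named for either line. The medium was IMDM for OCI-Ly1 and RPMI 1640 for TMD8, so line and medium cannot be told apart. The labels call the libraries a technical triplicate and name no separate cultures and no treatment time, so each p-value covers the spread between libraries, which may be only technical.

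NF-kB acts as a dimer of Rel-family proteins. RELA, REL (also called c-Rel) and RELB carry a transactivation domain, while NFKB1 and NFKB2 encode precursors that are processed to p50 and p52. IkB-alpha (from NFKBIA) and IkB-epsilon (from NFKBIE) hold dimers in the cytoplasm until the IkB kinase marks them for destruction. IkB-zeta (from NFKBIZ) and BCL3 are nuclear IkB proteins that bind p50 or p52 dimers on DNA and can raise or lower transcription. TNFAIP3 encodes A20, a ubiquitin-editing enzyme that shuts down signalling to the kinase. Several of these genes are themselves NF-kB targets, so their transcripts form a feedback loop. In diffuse large B-cell lymphoma the activated B-cell-like type, to which TMD8 belongs, is known for constitutive NF-kB activity, and OCI-Ly1 belongs to the germinal-centre B-cell-like type. REL is known for amplification in germinal-centre-type lymphomas, and TNFAIP3 is a recurrent tumour suppressor gene of the activated type.

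The promoters of several members hold the letters to which the factor binds. RefSeq promoter windows of build GRCh38.p14 were matched by symbol for 8 of the 10 genes (13 windows in all), and RELB and NFKBIE had none. The kB consensus motif was searched on both strands in the 250 bases before each annotated start, and overlapping matches were each counted. It was present for 6 of the 8 genes and in 8 of their 13 windows, against 11.8% of all genes with a window and 9.96% of all 35116 windows. The sequences below run 5′ to 3′ on the strand of the gene, with the match and its flanks, and capitals mark the motif. They cover every gene with a match except NFKB2, whose matches are described below, and show 1 of the NFKBIZ windows.
NFKB1, chr4:102501298-102501331, plus strand: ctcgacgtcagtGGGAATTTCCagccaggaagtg
REL, chr2:60881515-60881549, plus strand: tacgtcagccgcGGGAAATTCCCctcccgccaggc
NFKBIA, chr14:35404809-35404842, minus strand: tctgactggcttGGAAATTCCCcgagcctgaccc
NFKBIZ, chr3:101827755-101827788, plus strand: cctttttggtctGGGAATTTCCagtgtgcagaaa
TNFAIP3, chr6:137867180-137867225, plus strand: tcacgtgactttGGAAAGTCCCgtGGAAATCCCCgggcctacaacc
In REL the capitals are 2 overlapping matches, 1 on each strand, and TNFAIP3 had 2 separate matches that began 67 and 55 bases before the start. The NFKB1 match began 49 bases, the NFKBIA match 81 bases and the printed NFKBIZ match 223 bases before it, and a second NFKBIZ window had GGGGTTTCCC 239 bases before its own start. NFKB1 and the printed NFKBIZ window carried the same 10 letters. The NFKBIA match and 1 of the 2 REL matches lay on the opposite strand and, read there, had these same letters. Both TNFAIP3 matches were also on the opposite strand. NFKB2 had matches in 2 of its 3 windows, among them GGGAATTCCC. The motif's letters were not found in these windows for RELA (2 windows) and BCL3 (1 window). A match is a description of the sequence, and binding was not measured.

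The OCI-Ly1 libraries held 17579732 to 32651115 estimated counts each, and the TMD8 libraries 9550092 to 20509500. No 2 libraries of a group agreed within sampling noise (chi-square per degree of freedom 1.62 to 10.9 over the 18 pairs), so all were kept. All 8 B-cell markers checked reached at least 5 counts per 1000000 (CPM) in each of the 6 groups. The CPM of markers were scaled over all 18 libraries together. With DMSO, 9 of 9 markers of activated B-cell-like lymphoma were higher in TMD8 without overlap, and 6 of 8 germinal-centre markers were higher in OCI-Ly1, while LMO2 and SERPINA9 were higher in TMD8. Of the 8 B-cell markers 6 were higher in TMD8 and 2 in OCI-Ly1, also without overlap. Over all genes 76.4% did not overlap between the DMSO groups of the lines. The summed level of the 5 T-cell genes was 32.6 to 38.2 CPM in OCI-Ly1 with DMSO and 18.2 to 19.8 CPM at 500 nM, with CD2 at 3 counts or fewer there. It was 2.08 to 2.94 CPM in TMD8 with DMSO and 3.38 to 4.27 CPM at 500 nM, with CD3D, CD3E and CD2 at 3 counts or fewer. The 6 fibroblast and epithelial genes summed to 18.1 to 21.0 CPM in OCI-Ly1 with DMSO and 15.6 to 16.7 CPM at 500 nM, and to 23.5 to 25.1 and 53.0 to 57.2 CPM in TMD8. The 5 myeloid genes summed to 4.68 to 5.52 and 2.92 to 3.64 CPM in OCI-Ly1 and to 26.2 to 29.6 and 23.2 to 24.7 CPM in TMD8. The 4 plasma-cell genes summed to 166 to 178 and 110.2 to 117.5 CPM in OCI-Ly1 and to 466 to 494 and 549 to 563 CPM in TMD8. Single genes carried much of some sums. In OCI-Ly1 MZB1 had a mean of 162 CPM with DMSO and 89.7 CPM at 500 nM, while XBP1 rose from 6.62 to 21.6 CPM. In TMD8 COL1A1 rose from 3.67 to 30.5 CPM, and the myeloid gene CD68 was at 25.8 and 19.85 CPM. The part of these marker levels in the results was not tested.

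In the DMSO groups, TMD8 held more RNA of 9 of the 10 members than OCI-Ly1, and less of REL. With both lines on 1 scale (TMM CPM over all 18 libraries), BCL3 stood furthest apart. It was at 1.92, 1.80 and 2.01 CPM in the OCI-Ly1 DMSO libraries and at 201, 206 and 196 CPM in those of TMD8, a 104-fold difference (log2 6.70 ± 0.11 SE, adjusted p = 5.3e-27, edgeR). TNFAIP3 was at 12.2, 12.3 and 11.3 CPM in OCI-Ly1 and at 197, 178 and 182 CPM in TMD8, a 15.6-fold difference (log2 3.96 ± 0.07, adjusted p = 3.4e-27, edgeR). The groups did not overlap for any of the 10 members, where 76.4% of all genes did not overlap either. NFKB2 was 6.46-fold, NFKBIZ 5.72-fold, NFKBIE 3.92-fold, NFKBIA 2.76-fold, RELA 2.29-fold, RELB 2.16-fold and NFKB1 1.82-fold higher in TMD8. REL, by contrast, was at 100.1, 104 and 109.9 CPM in OCI-Ly1 and at 67.2, 67.0 and 69.8 CPM in TMD8, 1.54-fold lower in TMD8 (adjusted p = 7.0e-11, edgeR). All 10 differences passed the edgeR test, against 76.7% of the 16604 genes tested, with 9 higher in TMD8 (39.0% of all genes) and 1 lower (37.8%). The members' median was 1.72 on the log2 scale against 0.02 for all genes. In bulk RNA, a difference in the number of expressing cells and one in RNA per cell cannot be told apart. On the log2(TPM + 1) scale, where the median gene was -0.78 in this comparison, NFKB1 turned to -0.11 (limma adjusted p = 0.24) and RELB fell short of the threshold at 0.14 (adjusted p = 0.094). RELA shrank to 0.22 and REL widened to -1.54 on that scale, and 7 members were higher in TMD8 and 1 lower, against 16.3% and 70.7% of all genes (87.0% called) by limma.

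Levels per transcript length (TPM, transcripts per 1000000) ordered the members differently in the 2 lines. In OCI-Ly1 with DMSO, REL came first at 55.5 TPM (52.3 to 60.0, n = 3) and overlapped NFKBIA at 50.9 TPM (50.1 to 52.4). NFKB1 (33.4 TPM), RELB (29.1 TPM), RELA (19.6 TPM), NFKBIZ (16.1 TPM), NFKBIE (9.05 TPM), NFKB2 (7.09 TPM), TNFAIP3 (3.38 TPM) and BCL3 (1.45 TPM) followed, each apart from the next without overlap. In TMD8 with DMSO, BCL3, the lowest in OCI-Ly1, came first at 77.7 TPM (71.5 to 84.6) and overlapped NFKBIA at 72.2 TPM (66.1 to 83.4). NFKBIZ was at 46.8 TPM, and the next 5 overlapped in turn: RELB (32.2 TPM), NFKB1 (31.1 TPM), TNFAIP3 (26.8 TPM), NFKB2 (23.7 TPM) and RELA (23.0 TPM). REL (18.4 TPM) and NFKBIE (18.2 TPM) stood last and overlapped. After 500 nM the order had changed in both lines. In OCI-Ly1 NFKBIA led at 133 TPM and REL, at 33.9 TPM, came after RELB and NFKB1, while in TMD8 NFKBIZ led at 45.9 TPM, ahead of NFKBIA at 40.2 TPM and BCL3 at 36.3 TPM, which overlapped.

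**Figure D1:**
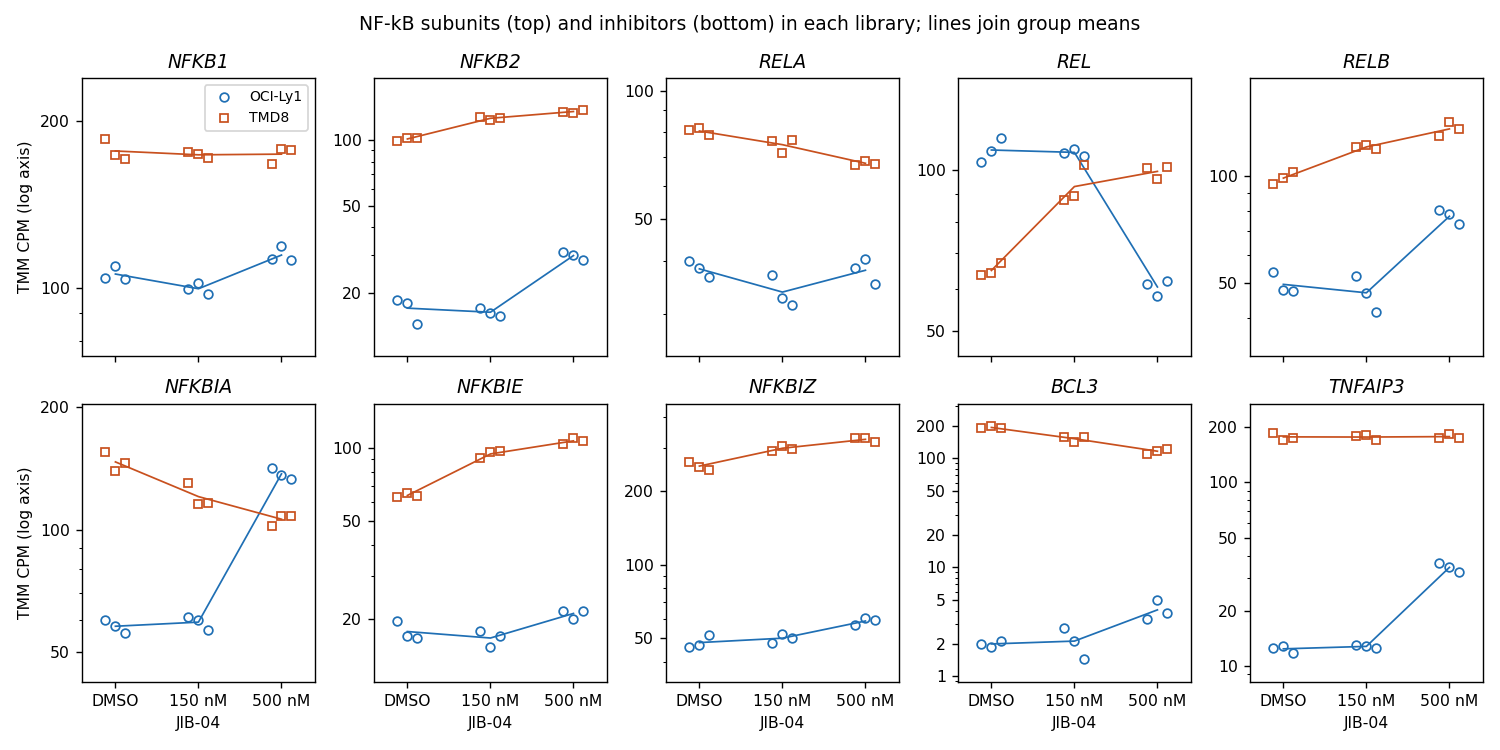
Normalised read counts (TMM CPM within each line, log axis) of the 10 members in each of the 18 libraries, by JIB-04 dose; circles are OCI-Ly1, squares TMD8, and lines join the means of 3 libraries. REL fell and NFKBIA rose in OCI-Ly1 at 500 nM, and both moved the other way in TMD8.

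From here on CPM are TMM-scaled within each line unless another scale is named, so they differ slightly from the values on 1 scale above. The strongest contrast among the subunits was in REL, the c-Rel subunit. In OCI-Ly1 REL was at 104, 108 and 115 CPM with DMSO, at 108, 109 and 106 CPM at 150 nM, and at 61.3, 58.3 and 62.0 CPM at 500 nM. The 150 nM libraries lay within the DMSO range and the 500 nM libraries lay below all others. The TMD8 libraries had 63.6, 64.3 and 67.0 CPM of REL with DMSO, 87.9, 89.2 and 102 CPM at 150 nM, and 100.6, 96.1 and 101 CPM at 500 nM. Both doses lay above DMSO without overlap, and overlapped each other. REL thus fell 1.80-fold in OCI-Ly1 at 500 nM (log2 -0.85 ± 0.06 SE, adjusted p = 9.5e-10, edgeR) and rose 1.53-fold in TMD8 (log2 0.61 ± 0.06, adjusted p = 6.2e-08). In TMD8 the rise was already 1.44-fold at 150 nM (adjusted p = 1.5e-06, edgeR), a dose at which the OCI-Ly1 change was -0.02 on the log2 scale (estimate ± 1.96 SE: -0.12 to 0.09). On the log2(TPM + 1) scale the TMD8 rise at 500 nM was 0.23 and missed the threshold (limma adjusted p = 0.062).

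NFKB2 and RELB, which encode the partners p52 and RelB of the non-canonical pathway, rose in both lines. NFKB2 in OCI-Ly1 was at 18.7, 18.1 and 14.6 CPM with DMSO, 17.2, 16.3 and 15.9 CPM at 150 nM and 31.1, 29.8 and 28.5 CPM at 500 nM. The TMD8 values were 99.4, 102 and 103 CPM with DMSO, 128, 124 and 126 CPM at 150 nM and 135, 134 and 138 CPM at 500 nM. The 500 nM libraries of OCI-Ly1 overlapped no other group, and its 150 nM libraries lay within the DMSO range, whereas the 3 TMD8 groups were all separate. The changes at 500 nM were 1.74-fold in OCI-Ly1 (log2 0.80 ± 0.09, adjusted p = 9.2e-07, edgeR) and 1.33-fold in TMD8 (log2 0.41 ± 0.04, adjusted p = 2.0e-07). RELB in OCI-Ly1 was at 53.7, 47.8 and 47.4 CPM with DMSO, 52.5, 46.9 and 41.6 CPM at 150 nM and 80.2, 78.2 and 73.2 CPM at 500 nM. The TMD8 values of RELB were 95.0, 98.9 and 103 CPM with DMSO, 121, 123 and 119 CPM at 150 nM and 130.0, 142 and 136 CPM at 500 nM. RELB rose in OCI-Ly1 at 500 nM (1.55-fold, adjusted p = 2.2e-06, edgeR), and in TMD8 at 150 nM (1.22-fold, adjusted p = 1.1e-04) and 500 nM (1.37-fold, adjusted p = 2.5e-07). On the log2(TPM + 1) scale the TMD8 changes at 500 nM were 0.03 for NFKB2 and 0.08 for RELB, neither past the threshold.

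RELA and NFKB1, the partners p65 and p50 of the canonical dimer, moved less at 500 nM than the other subunits on the TMM scale. RELA in OCI-Ly1 was at 39.9, 38.4 and 36.6 CPM with DMSO, 37.1, 32.8 and 31.4 CPM at 150 nM and 38.4, 40.3 and 35.3 CPM at 500 nM, and the groups overlapped. TMD8 had 80.8, 81.8 and 79.0 CPM with DMSO, 76.1, 71.6 and 76.8 CPM at 150 nM and 67.2, 68.5 and 67.3 CPM at 500 nM, with no overlap among the 3 groups. The TMD8 fall at 500 nM was 1.19-fold (log2 -0.25 ± 0.05, adjusted p = 2.2e-04, edgeR), and -0.59 with log2(TPM + 1) values (limma adjusted p = 3.9e-04). NFKB1 in OCI-Ly1 was at 104, 109 and 104 CPM with DMSO, 99.3, 102 and 97.3 CPM at 150 nM and 113, 119 and 112 CPM at 500 nM, so that the 500 nM libraries lay just above DMSO. Its change of 0.11 ± 0.05 (log2) missed the threshold (adjusted p = 0.077, edgeR), though it passed at 0.20 with library sizes alone (adjusted p = 0.0034). The NFKB1 values in TMD8 were 186, 174 and 171 CPM with DMSO, 176, 174 and 172 CPM at 150 nM and 167, 178 and 178 CPM at 500 nM, and the groups overlapped. The TMD8 change at 500 nM was -0.02 (estimate ± 1.96 SE: -0.11 to 0.07), and -0.38 on the log2(TPM + 1) scale (limma adjusted p = 0.011).

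Within the summed TPM of the 5 subunits, the composition shifted away from REL in OCI-Ly1. REL made up 38.3% ± 2.16 (SD, n = 3) of the sum with DMSO, 39.8% ± 1.37 at 150 nM and 21.5% ± 1.13 at 500 nM. RELB took 20.1% ± 1.35, 19.9% ± 1.52 and 31.4% ± 0.75, becoming the most abundant subunit transcript. NFKB2 went from 4.91% ± 0.59 to 8.46% ± 0.12 between DMSO and 500 nM. In TMD8 no subunit's mean share exceeded 28.8% in any group, and the REL share moved less. There REL went from 14.4% ± 0.33 to 18.3% ± 0.72, RELA from 17.9% ± 0.37 to 12.6% ± 0.17, NFKB1 from 24.2% ± 1.18 to 19.9% ± 0.35 and RELB from 25.1% ± 0.90 to 28.8% ± 0.90. The ratio of REL to RELA, the subunits of the main canonical dimers in B cells, was 2.84 ± 0.27 in OCI-Ly1 with DMSO and 0.802 ± 0.03 in TMD8. At 500 nM it was 1.59 ± 0.15 in OCI-Ly1 and 1.46 ± 0.06 in TMD8, and these libraries overlapped (1.44 to 1.75 and 1.40 to 1.49). These are shares and ratios within a library, given without a test.

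**Figure D2:**
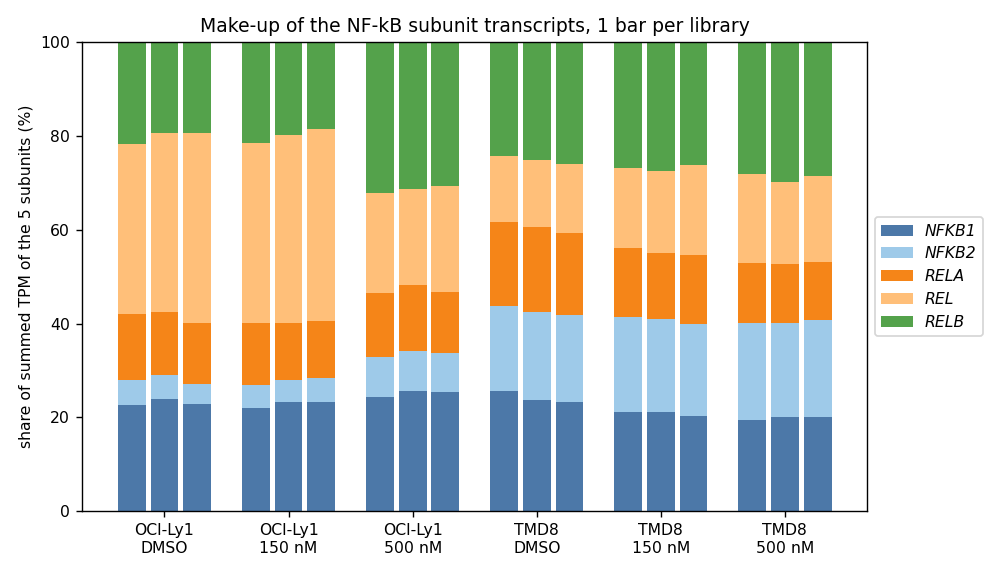
Share (%) of each subunit in the summed TPM of the 5 NF-kB subunits, 1 stacked bar per library, by line and JIB-04 dose. The REL share fell from 36.3 to 40.6% with DMSO to 20.3 to 22.6% at 500 nM in OCI-Ly1, while in TMD8 it rose from 14.1 to 14.7% with DMSO to 17.0 to 19.4% at 150 nM and 17.5 to 18.9% at 500 nM.

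All 5 inhibitors rose in OCI-Ly1 at 500 nM, and in TMD8 they went in both directions. NFKBIA, which encodes the cytoplasmic inhibitor IkB-alpha, was at 59.9, 58.0 and 55.6 CPM in OCI-Ly1 with DMSO, at 61.0, 59.9 and 56.8 CPM at 150 nM, and at 142, 136 and 134 CPM at 500 nM. The TMD8 libraries had 155, 139.7 and 146 CPM with DMSO, 130.1, 115 and 116 CPM at 150 nM, and 102, 108 and 108 CPM at 500 nM. The OCI-Ly1 libraries at 500 nM stood above the other 6 and the 3 TMD8 groups stepped down without overlap. NFKBIA rose 2.37-fold in OCI-Ly1 (log2 1.25 ± 0.06, adjusted p = 3.9e-12, edgeR) and fell 1.38-fold in TMD8 (log2 -0.47 ± 0.06, adjusted p = 1.0e-06). Its ratio to REL in TPM went from 0.921 ± 0.08 to 3.92 ± 0.17 in OCI-Ly1 between DMSO and 500 nM. In TMD8 the same ratio went from 3.91 ± 0.25 to 1.85 ± 0.09. The line with the higher ratio was TMD8 with DMSO and OCI-Ly1 at 500 nM, and the libraries did not overlap at either.

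TNFAIP3, which encodes A20, had the largest rise of the 10 members in OCI-Ly1. It was at 12.6, 12.8 and 11.8 CPM with DMSO, 13.0, 12.8 and 12.6 CPM at 150 nM and 36.3, 34.7 and 32.4 CPM at 500 nM. The 500 nM libraries lay above the others, and the rise was 2.78-fold (log2 1.48 ± 0.08, adjusted p = 4.8e-11, edgeR). In TMD8, where it started far higher, TNFAIP3 was at 187, 170.3 and 174 CPM with DMSO, 179, 182 and 169.6 CPM at 150 nM and 175, 183 and 175 CPM at 500 nM, and all groups overlapped. Its TMD8 change at 500 nM was 0.01 (estimate ± 1.96 SE: -0.09 to 0.10), though -0.36 on the log2(TPM + 1) scale (limma adjusted p = 0.011) and 0.10 with library sizes alone (edgeR adjusted p = 0.041).

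BCL3, a nuclear IkB protein, moved in opposite directions in the lines. In OCI-Ly1 it was at 1.98, 1.88 and 2.10 CPM with DMSO, 2.79, 2.11 and 1.44 CPM at 150 nM and 3.34, 5.07 and 3.82 CPM at 500 nM. TMD8 held far more, with 190.3, 197 and 188 CPM with DMSO, 156, 142 and 156 CPM at 150 nM and 109.8, 117 and 122 CPM at 500 nM. The 500 nM libraries of OCI-Ly1 lay above DMSO without overlap but at a low level, and the 3 TMD8 groups were separate. The rise in OCI-Ly1 was 2.03-fold (log2 1.02 ± 0.23, adjusted p = 0.0011, edgeR) and the fall in TMD8 was 1.65-fold (log2 -0.73 ± 0.05, adjusted p = 1.8e-09). The standard error in OCI-Ly1 was the widest of the members.

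NFKBIE and NFKBIZ rose in both lines. NFKBIE, encoding IkB-epsilon, was at 19.6, 16.9 and 16.6 CPM in OCI-Ly1 with DMSO, 17.8, 15.2 and 16.9 CPM at 150 nM and 21.5, 20.0 and 21.5 CPM at 500 nM. The TMD8 libraries had 62.7, 65.5 and 63.5 CPM with DMSO, 90.6, 95.9 and 97.0 CPM at 150 nM and 104, 109.8 and 107 CPM at 500 nM, and the 3 groups were apart. The TMD8 rise, the largest there among the members, was 1.48-fold at 150 nM (adjusted p = 9.2e-08, edgeR) and 1.67-fold at 500 nM (log2 0.74 ± 0.05, adjusted p = 5.3e-10). In OCI-Ly1 the rise at 500 nM was 1.18-fold (adjusted p = 0.028, edgeR), and that call was lost without DMSO replicate 2 (adjusted p = 0.091), DMSO replicate 3 (0.12), 500 nM replicate 1 (0.086) or 500 nM replicate 3 (0.079). NFKBIZ, encoding IkB-zeta, was at 45.9, 46.8 and 51.3 CPM in OCI-Ly1 with DMSO, 47.8, 52.2 and 50.1 CPM at 150 nM and 56.7, 60.3 and 59.4 CPM at 500 nM. Its TMD8 values were 262, 251 and 244 CPM with DMSO, 292, 306 and 297 CPM at 150 nM and 328, 327 and 318 CPM at 500 nM. In both lines the 500 nM libraries of NFKBIZ lay above DMSO, by 1.22-fold in OCI-Ly1 (adjusted p = 9.6e-04, edgeR) and 1.29-fold in TMD8 (adjusted p = 1.8e-06), though on the log2(TPM + 1) scale the TMD8 change was -0.02.

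**Figure D3:**
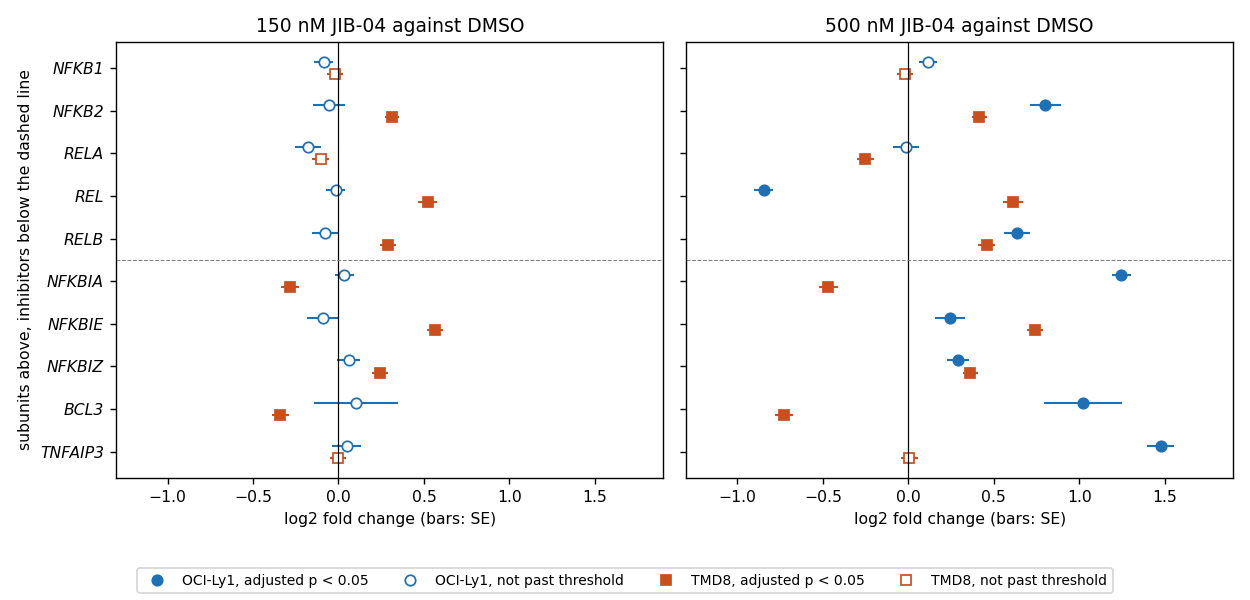
Log2 fold change against DMSO (points) with its standard error (bars) for the 10 members at 150 nM (left) and 500 nM (right) in OCI-Ly1 (circles) and TMD8 (squares); filled symbols passed an adjusted p of 0.05 in edgeR. At 150 nM the filled symbols are all from TMD8, and at 500 nM REL, NFKBIA and BCL3 lie on opposite sides of 0 in the lines.

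Counted over the members, 150 nM moved TMD8 and left OCI-Ly1 without a call. In OCI-Ly1 at 150 nM 0 of the 10 passed the edgeR test, against 0.889% of the 15638 genes tested. At an unadjusted p under 0.05 there was 1 (RELA, log2 -0.18), and DESeq2 also called 0. The share of all genes at that unadjusted p or by DESeq2 is not given here, so these 2 counts cannot be set against it. The libraries of 1 member, NFKB1, lay below DMSO without overlap, against 14.0% of all genes. In TMD8 at 150 nM 7 passed, against 44.2% of the 15363 genes tested. Of these 5 were higher, against 19.2% of all genes, and 2 lower, against 25.0%, and 8 did not overlap with DMSO, against 51.4%. The 5 that rose were NFKB2, REL, RELB, NFKBIE and NFKBIZ (1.18-fold to 1.48-fold), and NFKBIA and BCL3 fell by 1.22-fold and 1.27-fold. With log2(TPM + 1) values 4 passed in place of 7, without NFKB2 (0.15), RELB (0.13) and NFKBIZ (0.08). The share of all genes called on that scale is not given for 150 nM, so this count cannot be set against it.

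At 500 nM 8 members passed in each line. In OCI-Ly1 7 rose and 1 fell, where 53.6% of all genes were called, 27.7% higher and 25.9% lower, and the median of the members was 0.46 against -0.00 for all genes. The libraries of 9 did not overlap with DMSO, against 60.7% of all genes. In TMD8 5 rose and 3 fell, where 60.7% of all genes were called, 29.9% higher and 30.7% lower, with a median of 0.18 against 0.04, and 8 did not overlap, against 66.4%. By edgeR on TMM-scaled counts NFKB2, RELB, NFKBIE and NFKBIZ rose in both lines, and REL, NFKBIA and BCL3 changed in opposite directions. With the background at over 50% called, the share of members called says little by itself, and the direction and size of each member carry the description. The TMD8 tally turned round with log2(TPM + 1) values, where the median of all genes was -0.29. There 1 member was higher (NFKBIE, 0.35) and 5 were lower (RELA, NFKB1, NFKBIA, BCL3 and TNFAIP3), against 9.44% and 52.5% of all genes (61.9% called) by limma. NFKB2, REL, RELB and NFKBIZ did not pass in TMD8 on that scale, so of the 4 shared rises only that of NFKBIE passed in both lines, and of the 3 opposite changes those of NFKBIA and BCL3. In OCI-Ly1 8 were higher and 1 lower on it, against 36.1% and 14.2% of all genes (50.3% called).

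The difference between the lines was tested as the TMD8 change minus the OCI-Ly1 change in 1 fit of all 18 libraries. At 500 nM it passed for 7 of the 10 members, against 46.4% of 16604 genes. The TMD8 change was the more positive for 2, against 18.1% of all genes, and the more negative for 5, against 28.2%. The 4 widest were BCL3 (-1.76 ± 0.18 log2, adjusted p = 2.0e-08), NFKBIA (-1.74 ± 0.08, adjusted p = 7.1e-15), TNFAIP3 (-1.50 ± 0.09, adjusted p = 3.1e-13) and REL (1.43 ± 0.08, adjusted p = 1.4e-13), all by edgeR. Each of these was at least 2.69-fold. NFKB2 (-0.42), RELA (-0.27) and NFKBIE (0.47) differed by less, and NFKBIE came to -0.00 on the log2(TPM + 1) scale. Leaving out OCI-Ly1 500 nM replicate 2 put RELA at the threshold (edgeR adjusted p = 0.050). For NFKBIZ the difference was 0.04 (estimate ± 1.96 SE: -0.11 to 0.19), though -0.42 on the log2(TPM + 1) scale, where it passed (limma adjusted p = 0.0049), and for RELB -0.21 (-0.39 to -0.02, adjusted p = 0.079). That of NFKB1 was -0.16 (-0.30 to -0.03, adjusted p = 0.061). RELB passed without OCI-Ly1 DMSO replicate 1 (adjusted p = 0.025) and with a replicate block (0.026), and NFKB1 without OCI-Ly1 DMSO replicate 2 (0.043) or TMD8 DMSO replicate 3 (0.040). Both also passed with DESeq2 (-0.23, adjusted p = 0.046 for RELB and -0.19, 0.035 for NFKB1) and with RLE size factors (0.049 for each). With log2(TPM + 1) values, where the median gene was -0.46, they were -0.67 for RELB (limma adjusted p = 8.2e-05) and -0.63 for NFKB1 (2.6e-04). On that scale 9 members passed, 1 more positive in TMD8 and 8 more negative, against 5.58% and 58.6% of all genes (64.2% called).

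At 150 nM the lines differed in 5 members, against 23.3% of all genes. The TMD8 change was the more positive for 4, against 8.33%, and the more negative for 1, against 15.0%. These were NFKBIE (0.65 ± 0.10, adjusted p = 3.0e-05), REL (0.53 ± 0.08, adjusted p = 2.8e-05), NFKB2 (0.36 ± 0.10, adjusted p = 0.0081), RELB (0.36 ± 0.10, adjusted p = 0.0078) and NFKBIA (-0.33 ± 0.08, adjusted p = 0.0053), by edgeR. For NFKB2 and RELB this order was not kept at 500 nM, where the TMD8 change was the smaller for NFKB2 and RELB did not pass. With log2(TPM + 1) values neither NFKB2 nor RELB passed at 150 nM, leaving 3, and the share of all genes on that scale is not given here. Without OCI-Ly1 DMSO replicate 1 the NFKB2 difference missed the threshold (adjusted p = 0.051), and without OCI-Ly1 150 nM replicate 3 the BCL3 difference passed it (-0.64, adjusted p = 0.029).

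Between 150 and 500 nM more members passed in OCI-Ly1 than in TMD8. In OCI-Ly1 9 passed, against 46.2% of all genes, 8 of them higher (25.1% of all genes) and 1 lower (21.1%), and 9 did not overlap, against 55.6%. The changes were of the size seen against DMSO, for example 1.43 for TNFAIP3, 1.21 for NFKBIA and -0.83 for REL on the log2 scale. RELA (0.17, adjusted p = 0.083) passed without OCI-Ly1 150 nM replicate 1 (0.021) or 500 nM replicate 3 (0.049), and on the log2(TPM + 1) scale (0.014). In TMD8 5 passed, against 28.7% of all genes, 2 of them higher (13.7%) and 3 lower (15.0%), and 7 did not overlap, against 44.8%. BCL3 fell by a further 1.31-fold (adjusted p = 4.0e-05, edgeR), NFKBIA by 1.14-fold (0.020) and RELA by 1.11-fold (0.034), and NFKBIE rose 1.13-fold (0.0094) and RELB 1.12-fold (0.014). RELB and NFKBIE turned to -0.05 and -0.04 on the log2(TPM + 1) scale. The count was 3 without TMD8 150 nM replicate 1, 3 without 500 nM replicate 1 and 2 without 500 nM replicate 2, and BCL3 was the only one of the 5 that passed whichever library was left out. The share of all genes called in these fits is not given here. REL passed without 150 nM replicate 3 (adjusted p = 0.035).

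Among 15 other inhibitors of the pathway, 7 rose and 2 fell in OCI-Ly1 at 500 nM (median 0.16) and 4 rose and 2 fell in TMD8 (median 0.09). The called share was 60.0% in OCI-Ly1, near the 53.6% of all genes, and 40.0% in TMD8, below the 60.7% of all genes. With log2(TPM + 1) values 0 rose and 9 fell in TMD8, against 9.44% and 52.5% of all genes by limma. NFKBID, another nuclear IkB protein, rose 1.88-fold in OCI-Ly1 from 10.2 ± 2.27 to 19.4 ± 1.11 CPM (SD, n = 3, adjusted p = 1.1e-05, edgeR). In TMD8 it fell 1.14-fold (adjusted p = 0.013, edgeR), the same pair of directions as NFKBIA and BCL3, with a difference of -1.12 (adjusted p = 3.1e-07). RNF11, a partner of A20, rose 1.82-fold in OCI-Ly1 and was at 0.07 in TMD8 on the log2 scale (adjusted p = 0.42). FAM105B, the older symbol of the linear-ubiquitin peptidase OTULIN, went the other way, with -0.48 in OCI-Ly1 and 0.25 in TMD8, both past the threshold, though with log2(TPM + 1) values the TMD8 change turned to -0.11. PDLIM2, a nuclear ubiquitin ligase for p65, fell 1.43-fold in OCI-Ly1. In TMD8 TNIP1, an A20-binding protein, rose 1.21-fold (-0.10 with log2(TPM + 1) values) and the ribonuclease ZC3H12A fell 1.15-fold.

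Of 22 upstream activators, 21 were tested. In OCI-Ly1 6 rose and 6 fell at 500 nM, and in TMD8 4 rose and 6 fell, with medians of 0.11 and -0.09. The called share was 57.1% against 53.6% of all genes in OCI-Ly1 and 47.6% against 60.7% in TMD8. On the log2(TPM + 1) scale 17 fell and 0 rose in TMD8, against 52.5% and 9.44% of all genes by limma. MYD88, the adaptor of Toll-like receptors, fell in both lines, from 28.0 ± 1.54 to 14.6 ± 1.07 CPM in OCI-Ly1 (1.92-fold, adjusted p = 9.7e-08, edgeR). In TMD8 it went from 93.5 ± 7.19 to 58.0 ± 0.69 CPM (1.61-fold, adjusted p = 2.0e-08, edgeR). TLR9, a receptor that signals through MYD88, also fell in both, by 1.80-fold in OCI-Ly1 and 1.27-fold in TMD8. RBCK1, a subunit of the linear ubiquitin ligase, rose 1.77-fold and BIRC2, a ubiquitin ligase of receptor complexes, rose 1.40-fold in OCI-Ly1. Neither passed in TMD8 (-0.00 and -0.19 on the log2 scale). In TMD8 TNFRSF13C, the BAFF receptor, rose 1.40-fold, IKBKB, the catalytic IkB kinase subunit, rose 1.35-fold and the kinase IRAK1 fell 1.32-fold.

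Of 36 target genes, 29 were tested in OCI-Ly1 and 33 in TMD8. At 500 nM 18 rose and 3 fell in OCI-Ly1 (median 0.51), and 15 rose and 9 fell in TMD8 (median 0.09). Over all genes 27.7% were called higher and 25.9% lower in OCI-Ly1, and 29.9% and 30.7% in TMD8. With log2(TPM + 1) values 8 targets rose and 18 fell in TMD8, against 9.44% and 52.5% of all genes by limma. ICAM1, an adhesion molecule, moved in the directions of NFKBIA: it rose from 1.48 ± 0.22 to 18.4 ± 0.12 CPM in OCI-Ly1 (12.2-fold, adjusted p = 4.8e-13, edgeR) and fell from 87.9 ± 1.70 to 67.7 ± 2.92 CPM in TMD8 (1.30-fold, adjusted p = 9.8e-06). The difference between lines was -4.02 ± 0.12 (log2, adjusted p = 2.4e-18, edgeR). ICAM1 was also the 1 target called in OCI-Ly1 at 150 nM (1.81-fold, adjusted p = 0.013, edgeR). Other targets rose in both lines: GADD45B, a stress-response gene, 5.29-fold in OCI-Ly1 and 6.37-fold in TMD8, and the chemokine receptor CCR7 7.43-fold and 2.22-fold. In OCI-Ly1 CCR7 started at a low level, 0.76 ± 0.23 CPM, and reached 5.84 ± 0.85 CPM. STAT5A rose 5.16-fold in TMD8, from 5.07 ± 0.27 to 26.3 ± 2.34 CPM. It also rose 5.45-fold in OCI-Ly1 (adjusted p = 0.0064, edgeR), but at a very low level, from 0.11 ± 0.15 to 0.66 ± 0.18 CPM. BIRC3, an anti-apoptotic ubiquitin ligase, fell 2.25-fold in TMD8 and was at 0.03 in OCI-Ly1 (log2, adjusted p = 0.76). The cytokine gene IL10 fell in both lines. The fall was 2.02-fold in OCI-Ly1, at a low level (2.01 ± 0.04 to 0.99 ± 0.18 CPM), and 1.78-fold in TMD8 (45.5 ± 1.59 to 25.6 ± 2.41 CPM). The chemokine gene CCL22 fell 1.51-fold in OCI-Ly1. The caspase-8 regulator CFLAR fell 1.17-fold in OCI-Ly1 and rose 1.08-fold in TMD8, and both directions turned with log2(TPM + 1) values, to 0.14 and -0.37. CXCL10 had 0 counts in each OCI-Ly1 DMSO library and 14 to 25 at 500 nM, at least 4.63-fold higher with a floor of 3 counts per library.

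**Figure D4:**
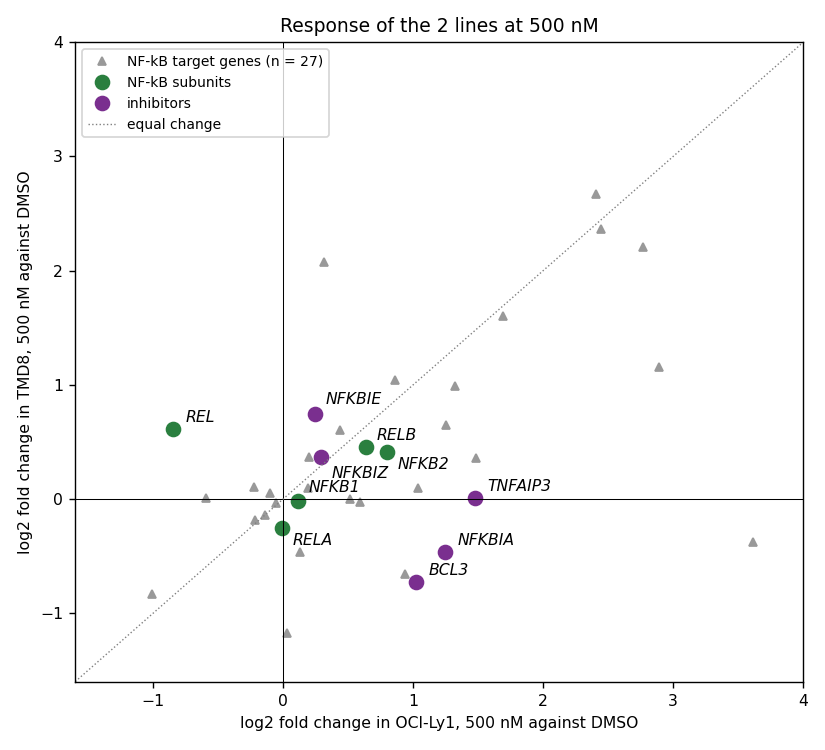
Log2 fold change at 500 nM against DMSO in OCI-Ly1 (horizontal) and TMD8 (vertical) for the 5 subunits, the 5 inhibitors and 27 NF-kB target genes tested in both lines (triangles), with a dotted line of equal change; CXCL10, at 0 counts in OCI-Ly1 with DMSO, is not plotted. NFKBIA and BCL3 lie in the lower right, with the ICAM1 triangle further right at 3.61 and -0.38, and REL stands alone in the upper left among the members.

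The marker CPM in this paragraph are TMM-scaled over all 18 libraries. IRF4, which is in both the target list and the activated B-cell-like marker list, was at 222 ± 13.9 CPM with DMSO and 424 ± 16.2 CPM at 500 nM in OCI-Ly1. In TMD8 it was at 2864 ± 175 and 1776 ± 11.2 CPM. The summed level of the 9 activated-type markers was 645 to 663 CPM with DMSO and 961 to 1012 CPM at 500 nM in OCI-Ly1. In TMD8 the sum was 4661 to 5041 CPM with DMSO and 3553 to 3611 CPM at 500 nM. IRF4 made up most of the TMD8 fall: without it the sum was 1892 to 1975 CPM with DMSO and 1790 to 1831 CPM at 500 nM there, and 426 to 442 and 556 to 575 CPM in OCI-Ly1. By edgeR 6 of the 9 markers rose and 1 (ENTPD1) fell in OCI-Ly1, against 27.7% and 25.9% of all genes. In TMD8 5 fell (IRF4, CYB5R2, ENTPD1, RAB7L1 and BATF) and 4 rose (FOXP1, PIM2, LIMD1 and TNFRSF13B, by 0.13 to 0.40 on the log2 scale). Over all genes 30.7% were called lower and 29.9% higher there. With log2(TPM + 1) values none of the 4 rising markers passed as a rise. The part of these marker levels in the changes of the members was not tested.

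For each member the gene most like it in both lines was taken as the one with the highest smaller Pearson r of log2 CPM over the 9 libraries of each line, among 9940 genes. The libraries of a line share 3 dose groups, so for a member that moved with dose r mostly reflects the steps between doses. For TNFAIP3 and NFKB1 in TMD8 and RELA in OCI-Ly1, whose dose groups overlapped, r also reflects the spread between libraries. Each nearest gene is the best of 9940 over few libraries, so a high r is likely for any member, and none was tested. NFKB2 and RELB had the same nearest gene, SQSTM1 (r at least 0.991 and 0.974). For NFKBIA it was ICAM1 (0.976 in OCI-Ly1 and 0.983 in TMD8), for REL MAP1A (0.981 and 0.983), for BCL3 NUCB1 (0.974 and 0.966) and for NFKBIZ ANKRA2 (0.968 and 0.992). NFKBIE was nearest to PLEKHM3 (0.956 and 0.935), RELA to PLOD1 (0.930 and 0.931) and TNFAIP3 to VPS45 (0.969 and 0.893). The likeness was lowest for NFKB1, with ACO1 (0.799 and 0.928).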

How the data were processed

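RNA was sequenced in 18 libraries. Per the submitters' processing notes the authors used kallisto 0.46.0, R 4.3.1 and DESeq2 1.40.2 with build hg19. The deposited estimated counts per gene, which are not scaled for depth, were rounded to whole numbers before testing. The deposited TPM values were scaled by the authors to 1000000 per library and served for levels between genes and for alternatives. MIR3687 took 15.2 to 24.4% of the TPM in TMD8 and RPPH1 6.33 to 10.6% in OCI-Ly1, so other genes' TPM depend in part on them. Their part in the shift of the median gene on the TPM scales was not tested. The main test was edgeR 4.0.16 (R 4.3.3) with TMM scaling, filterByExpr and the quasi-likelihood F test, on the 9 libraries of a line or, between lines, all 18. P-values were Benjamini-Hochberg adjusted over all genes tested and called under 0.05. A standard error is the absolute log2 change divided by the square root of F. Alternatives used DESeq2 1.42.0, limma 3.58.1 on log2(TPM + 1) and log2(TPM + 0.1) with genes of at least 0.5 TPM, other scalings and filters, and left-out libraries. The edgeR code was tested on simulated data.

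The members, lists, markers and the rule for named genes were chosen with earlier results of these data known. The rule named, per list and line, up to 2 risers and 2 fallers at 500 nM that passed the test, did not overlap and reached 5 CPM; IRF4 and CXCL10 were added after their values were seen. Strand was not given in the sources used here, so reads of overlapping antisense genes could be mixed in. Promoter windows came from RefSeq (GRCh38.p14). Protein sequences were not used here.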

Additional observations from a re-analysis of the deposited data

Results flagged for a closer look

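These members changed differently in the 2 lines by the test of the difference itself (edgeR, TMD8 change minus OCI-Ly1 change, log2). At 150 nM the differences were 0.36 for NFKB2, 0.53 for REL, 0.36 for RELB, -0.33 for NFKBIA and 0.65 for NFKBIE. At 500 nM they were -0.42 for NFKB2, -0.27 for RELA, 1.43 for REL, -1.74 for NFKBIA, 0.47 for NFKBIE, -1.76 for BCL3 and -1.50 for TNFAIP3. For NFKB2 the sign of the difference turned between the doses. All members had 3 libraries per group, too few to test single libraries for standing apart.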

How the results depend on the processing

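Of 1560 values of members under alternatives, 1474 kept their direction and side of the threshold, 39 lost and 33 gained a call, and 14 changed sign with a call in either fit. A further 67 changed sign with no call in either. All 14 came from the log2(TPM + 1) and log2(TPM + 0.1) scales, where the median gene moved by -0.29 and -0.36 in TMD8 at 500 nM. In that order they were -0.0216 and -0.0219 (NFKBIZ) and -0.36 and -0.37 (TNFAIP3) in TMD8 at 500 nM, -0.0511 and -0.0525 (RELB) and -0.0409 and -0.0425 (NFKBIE) in TMD8 between doses. For the line difference at 500 nM they were -0.0023 and -0.0178 (NFKBIE) and -0.42 and -0.44 (NFKBIZ), and for DMSO between lines -0.11 and -0.11 (NFKB1). On both TPM scales the members called were 4 in TMD8 at 150 nM (main 7), 3 in TMD8 between doses (main 5, and 3 without the low-count filter) and 3 for the line difference at 150 nM (main 5). The share of all genes called is not given for these counts. With centred TPM, NFKBIE in OCI-Ly1 at 500 nM missed the threshold (adjusted p = 0.13). Leaving out 1 library gave 2 to 5 called in TMD8 between doses, with 3 without 150 nM replicate 1, 3 without 500 nM replicate 1 and 2 without 500 nM replicate 2. Over all genes, TMD8 calls at 500 nM were 49.3% higher in the main fit and 15.2% on log2(TPM + 1), and OCI-Ly1 calls 51.6% and 71.8%. Replicate numbers showed no clear pairing of the libraries: 2 of 18 same-number pairs had r over 0.1 (-0.04 to 0.12). Between DMSO and 150 nM the highest r was a same-number pair in both lines, 0.12 in OCI-Ly1 and 0.09 in TMD8. Weak pairing therefore cannot be dismissed. With a replicate block the members called were 10 in OCI-Ly1 between doses (main 9) and 8 for the line difference at 500 nM (main 7), and equal elsewhere. For fits with a block or with a library left out, the share of all genes called is not given either. Depth limits BCL3 most, at about 2 CPM in OCI-Ly1.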
